A study of Mus musculus with 12 samples.

Results

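Most HES and HEY genes and Nrarp are switched on directly when a Notch receptor is activated, and the levels of 7 genes of this group were examined in 12 mouse neuroendocrine thyroid carcinomas. The 7 members, Hes1, Hes5, Hes6, Hey1, Hey2, Heyl and Nrarp, were chosen by name, with earlier results of these data known. All 7 were found among the 23284 genes of the count tables. Of these, 6 passed the filter on low counts and entered the test over 14989 genes, and Hes5 did not. The series compared primary tumours of a genetically engineered mouse model, labelled with the genotype Rb1/Trp53 (7 tumours) or Rb1/Trp53/Crebbp (5 tumours), to look for genes under the control of Crebbp, which encodes a coactivator that acetylates histones. Rb1 and Trp53 are named in the genotype of every tumour, so no group is free of those alterations. Age, the way the alleles were altered, the cells in which this was done and whether tumours came from separate mice are details that the labels do not give. The p-values therefore measure the spread between these tumours.

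When a ligand on a neighbouring cell binds a Notch receptor, the receptor is cut and its intracellular domain enters the nucleus, joins the DNA-binding protein RBPJ and a Mastermind coactivator, and recruits histone acetyltransferases such as CREBBP and EP300. The HES and HEY proteins that result are basic helix-loop-helix repressors. HES1 and HES5 repress genes of the neuronal and neuroendocrine programme such as Neurog3, HES6 is known for opposing HES1 rather than acting as a target of Notch, HEY1, HEY2 and HEYL act in blood vessels and their muscle cells among other places, and NRARP binds the Notch complex and dampens it. Thyroid C cells, from which tumours of this kind are thought to arise, are neuroendocrine cells that make calcitonin.

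Promoter sequences show which members carry the DNA word that RBPJ reads close to their start site. RefSeq promoters of build GRCm38.p6 were matched for 4 of the 7 members, Hes5, Hes6, Hey2 and Nrarp, and no entry was found for Hes1, Hey1 and Heyl. Each window is 300 bases long, and the word GTGGGAA was searched on both strands. Of 32851 windows of this length in the table, 6.38% held at least 1 match and 0.256% held 2 or more. The Hes5 and Hey2 windows held 2 matches each, 1 on either strand, shown in capitals.
Hes5, chr4:154960673-154960972, plus strand: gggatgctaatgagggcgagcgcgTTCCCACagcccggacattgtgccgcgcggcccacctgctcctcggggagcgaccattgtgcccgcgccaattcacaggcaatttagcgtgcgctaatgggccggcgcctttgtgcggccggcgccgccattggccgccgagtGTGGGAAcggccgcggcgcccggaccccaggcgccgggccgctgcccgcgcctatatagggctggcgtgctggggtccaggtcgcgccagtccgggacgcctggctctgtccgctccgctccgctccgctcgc
Hey2, chr10:30842734-30843033, minus strand: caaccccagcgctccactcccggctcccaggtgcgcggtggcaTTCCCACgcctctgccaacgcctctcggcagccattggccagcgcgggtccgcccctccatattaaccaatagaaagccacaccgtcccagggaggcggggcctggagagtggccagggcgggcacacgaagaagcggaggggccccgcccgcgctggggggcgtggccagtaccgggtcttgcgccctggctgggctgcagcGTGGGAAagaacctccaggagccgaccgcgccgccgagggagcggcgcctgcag
Counted from 1 at the 5′ end, the matches lay at bases 25 to 31 and 168 to 174 in Hes5 and at bases 44 to 50 and 247 to 253 in Hey2. The Nrarp window and both Hes6 windows held no GTGGGAA. The word CACGNG, which HES and HEY proteins bind, occurred in 27.5% of all windows. It had 1 match in 1 of the Hes6 windows, CACGGG at bases 94 to 99, and 1 in the Nrarp window, CACGTG at bases 143 to 148, shown in capitals below.
Nrarp, chr2:25180508-25180807, plus strand: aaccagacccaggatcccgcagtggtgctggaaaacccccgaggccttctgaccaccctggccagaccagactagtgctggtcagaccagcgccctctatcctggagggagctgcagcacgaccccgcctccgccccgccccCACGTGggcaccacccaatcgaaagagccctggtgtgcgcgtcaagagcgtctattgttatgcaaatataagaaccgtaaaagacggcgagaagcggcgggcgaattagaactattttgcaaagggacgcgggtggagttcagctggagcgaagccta
A match is a description of these letters and not a measured binding site, and the tables of this series hold no binding data.

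The libraries held 9.11 M to 57.3 M gene counts, and 3 counts, taken as the floor, made 0.0502 to 0.312 CPM (the counts of a gene scaled to a common library total). Calca, the calcitonin gene, stood at 80584 to 215748 CPM in Rb1/Trp53 and 19994 to 119488 CPM in Rb1/Trp53/Crebbp tumours, and Syp, which encodes the vesicle protein synaptophysin, at 204 to 299 and 168 to 268 CPM, so these neuroendocrine markers were present in every tumour. Crebbp itself averaged 54.6 and 53.9 CPM (log2 fold change -0.02 ± 0.20 SE; edgeR adjusted p = 0.957). Whole-gene counts cannot reveal a deleted exon, and so the Crebbp label was not checked by them. Trp53, named in the genotype of both groups, was lower without overlap in the Rb1/Trp53/Crebbp tumours (means 28.9 and 16.1 CPM; log2 fold change -0.84 ± 0.17 SE; edgeR adjusted p = 0.00918), and Rb1 was not called (0.37 ± 0.17 SE; adjusted p = 0.137). The tumours are bulk tissue, in which fewer cells of a type and less RNA per cell cannot be told apart.

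Hes1 and Heyl were lower and Hey1 was higher in the Rb1/Trp53/Crebbp tumours, while Hes6, Hey2 and Nrarp did not pass the test. Hes1 was 3.02-fold lower, Heyl 2.28-fold lower and Hey1 1.54-fold higher. Thus 3 of the 6 tested members were called by edgeR's quasi-likelihood test at a Benjamini-Hochberg adjusted p under 0.05 over all genes, where 18.3% of all tested genes were called, 9.64% as higher and 8.61% as lower. The median log2 fold change was -0.29 over the 6 tested members and -0.02 over all tested genes. Estimates were above 0 for Hes6, Hey1 and Nrarp and below 0 for Hes1, Hey2 and Heyl, 3 on each side. The median of the members therefore fell in the gap between Hey2 (-0.81) and Nrarp (0.23), and it does not show a common shift. The groups did not overlap for 2 of the 6, Hes1 and Heyl, as for 6.26% of all tested genes. Because the members were chosen with earlier results of these data known, these shares are descriptions and not a test of the group.

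**Figure D1:**
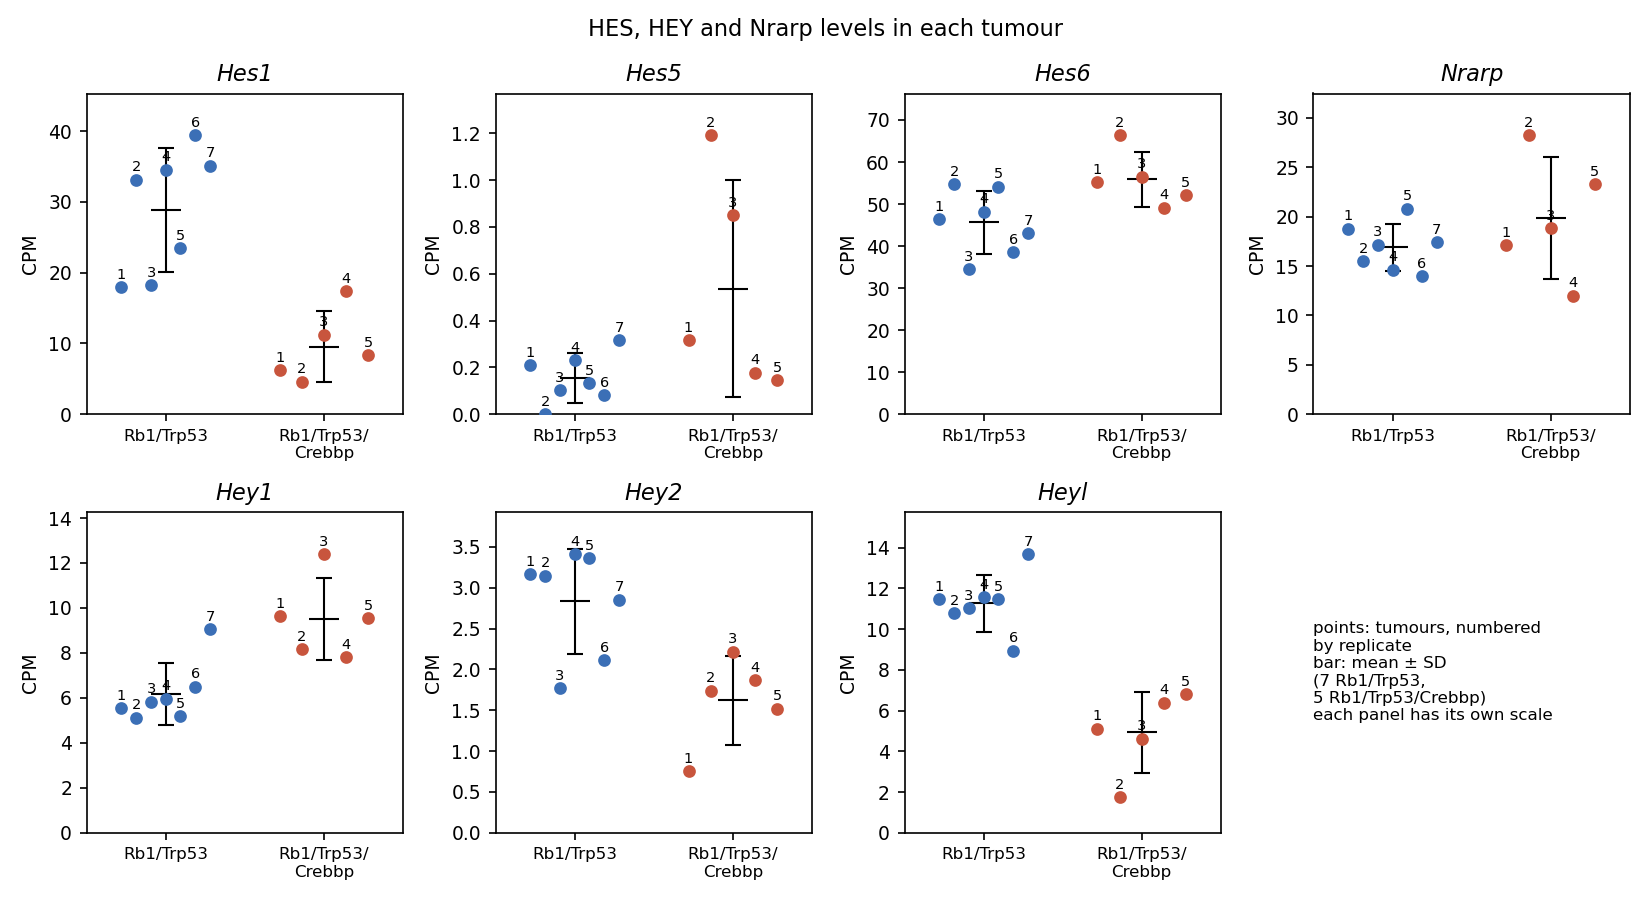
Levels of the 7 members in each tumour, in CPM on a linear axis that starts at 0 and differs between panels. Points are tumours numbered by replicate, and bars are the mean ± SD of 7 Rb1/Trp53 and 5 Rb1/Trp53/Crebbp tumours. All 5 Hes1 and Heyl values of the Rb1/Trp53/Crebbp group lie below every Rb1/Trp53 value.

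Hes1, the HES repressor best known for holding back neuroendocrine differentiation, showed the largest change of the 6 tested members. In the Rb1/Trp53 tumours it ranged from 17.9 CPM through a median of 33.1 CPM to 39.4 CPM. In Rb1/Trp53/Crebbp replicates 1 to 5 it stood at 6.24, 4.58, 11.2, 17.4 and 8.33 CPM. Replicate 4 was the highest of that group and lay just under the lowest Rb1/Trp53 tumour, at 17.9 CPM in replicate 1. The Rb1/Trp53 tumours also differed among themselves, with 33.1 to 39.4 CPM in replicates 2, 4, 6 and 7 and 17.9 to 23.5 CPM in replicates 1, 3 and 5. Its log2 fold change was -1.59 ± 0.33 (SE; edgeR adjusted p = 0.0101) and ranged from -1.91 to -1.44 when each tumour was left out in turn, with adjusted p from 0.00326 to 0.0300.

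Hes5, the HES family member of neural progenitors, was near the limit of detection. It had 3, 0, 1, 4, 8, 1 and 5 counts in Rb1/Trp53 replicates 1 to 7 and 5, 13, 18, 2 and 2 counts in Rb1/Trp53/Crebbp replicates 1 to 5. Of these libraries, 4 of 7 and 2 of 5 held no more than the 3 counts taken as the floor, and 0 counts in Rb1/Trp53 replicate 2 allow up to 0.236 CPM. Summed over a group, 22 counts made 0.155 CPM (95% exact Poisson interval 0.0973 to 0.235) in Rb1/Trp53 and 40 counts made 0.548 CPM (0.391 to 0.746) in Rb1/Trp53/Crebbp tumours, intervals that cover counting error only. The sum of the second group came mainly from replicates 2 and 3, and the other 3 tumours lay within the Rb1/Trp53 range. Without a filter on low counts Hes5 was not called (log2 fold change 1.72 ± 0.64 SE; edgeR adjusted p = 0.0943).

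Hes6, which encodes the HES protein that opposes HES1, ranged from 34.5 through 46.5 to 54.7 CPM in Rb1/Trp53 tumours and stood at 55.3, 66.3, 56.5, 49.1 and 52.1 CPM in Rb1/Trp53/Crebbp replicates 1 to 5. Replicates 1 to 3 of the second group lay above every Rb1/Trp53 tumour, and replicates 4 and 5 lay within their range. The difference, 0.29 ± 0.12 on the log2 scale (SE), was not called (edgeR adjusted p = 0.117).

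The 3 HEY genes went in different directions. Heyl, the HEY gene of vascular smooth muscle and pericytes, ranged from 8.93 through 11.5 to 13.7 CPM in Rb1/Trp53 tumours and stood at 5.11, 1.74, 4.62, 6.39 and 6.81 CPM in Rb1/Trp53/Crebbp replicates 1 to 5. All 5 values were below the lowest Rb1/Trp53 value, and replicate 2 was the lowest of all. Its log2 fold change was -1.19 ± 0.27 (SE; edgeR adjusted p = 0.0144), -1.34 to -0.999 with 1 tumour left out, and it was called in each of those 12 fits.

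Hey1, a HEY repressor of arterial endothelium and many other Notch-responsive cells, ranged from 5.11 through 5.83 to 9.07 CPM in Rb1/Trp53 tumours and stood at 9.64, 8.16, 12.4, 7.81 and 9.56 CPM in Rb1/Trp53/Crebbp replicates 1 to 5. Rb1/Trp53 replicate 7, at 9.07 CPM, lay within the other group's range and the next highest tumour stood at 6.498 CPM. On the log2 scale the fold change was 0.63 ± 0.18 (SE; edgeR adjusted p = 0.0333). The call was lost without Rb1/Trp53 replicate 2 (0.0647), 4 (0.0636), 5 (0.0555) or 6 (0.0560) and without Rb1/Trp53/Crebbp replicate 1 (0.0697), 2 (0.0598), 3 (0.0907) or 5 (0.0639), values that are edgeR adjusted p. Over all 12 leave-out fits the estimate stayed between 0.51 and 0.74.

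Hey2, a HEY gene of arterial endothelium and heart muscle whose promoter is shown above, ranged from 1.77 through 3.15 to 3.41 CPM in Rb1/Trp53 tumours. It stood at 0.756, 1.74, 2.22, 1.86 and 1.52 CPM in Rb1/Trp53/Crebbp replicates 1 to 5, so that 3 of 5 lay below every Rb1/Trp53 tumour. A log2 difference of -0.81 ± 0.28 (SE) was not called by edgeR (adjusted p = 0.0630). It was called by DESeq2 (adjusted p = 0.0239), by limma voom (0.0184) and by edgeR without Rb1/Trp53 replicate 3 (0.0366), the tumour with the lowest Hey2 of its group.

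Nrarp, the feedback inhibitor, ranged from 13.97 through 17.2 to 20.8 CPM in Rb1/Trp53 tumours and stood at 17.1, 28.2, 18.8, 11.99 and 23.3 CPM in Rb1/Trp53/Crebbp replicates 1 to 5. The second group spread to both sides of the first, with replicate 4 below and replicates 2 and 5 above every Rb1/Trp53 tumour. Nrarp was not called (log2 fold change 0.23 ± 0.18 SE; edgeR adjusted p = 0.383), and its estimate was 0.06 without Rb1/Trp53/Crebbp replicate 2. A p above the threshold does not show that the groups were alike.

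**Figure D2:**
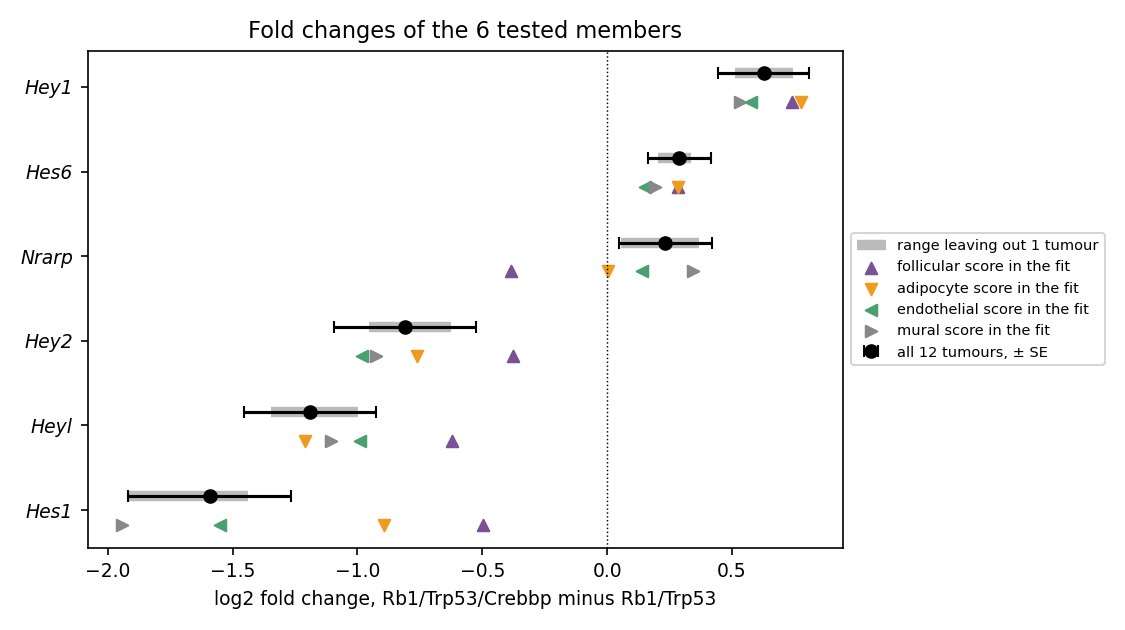
Log2 fold change (Rb1/Trp53/Crebbp minus Rb1/Trp53) of the 6 tested members. Black points and bars give edgeR's estimate ± SE over 12 tumours, grey bars the range with 1 tumour left out, and coloured symbols the estimate with a marker score of another cell type in the fit. Hes1, Heyl and Hey2 lie below 0 and Hey1 and Hes6 above 0 in each of these fits, while Nrarp lies on both sides.

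The balance between members within a library does not depend on how libraries were scaled. The ratio of Hes6 to Hes1 counts ran from 0.979 to 2.59 (median 1.65) in Rb1/Trp53 tumours and from 2.82 to 14.5 (median 6.25) in Rb1/Trp53/Crebbp tumours. The ratio of Hey1 to Heyl counts ran from 0.451 to 0.727 (median 0.515) and from 1.22 to 4.68 (median 1.89). The ratio of Hey1 to Hes1 counts ran from 0.154 to 0.320 (median 0.221) and from 0.449 to 1.78 (median 1.148). None of these 3 ratios overlapped between the genotypes. They were formed from genes whose differences were already known, so they describe the shift among the members and were not tested.

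**Figure D3:**
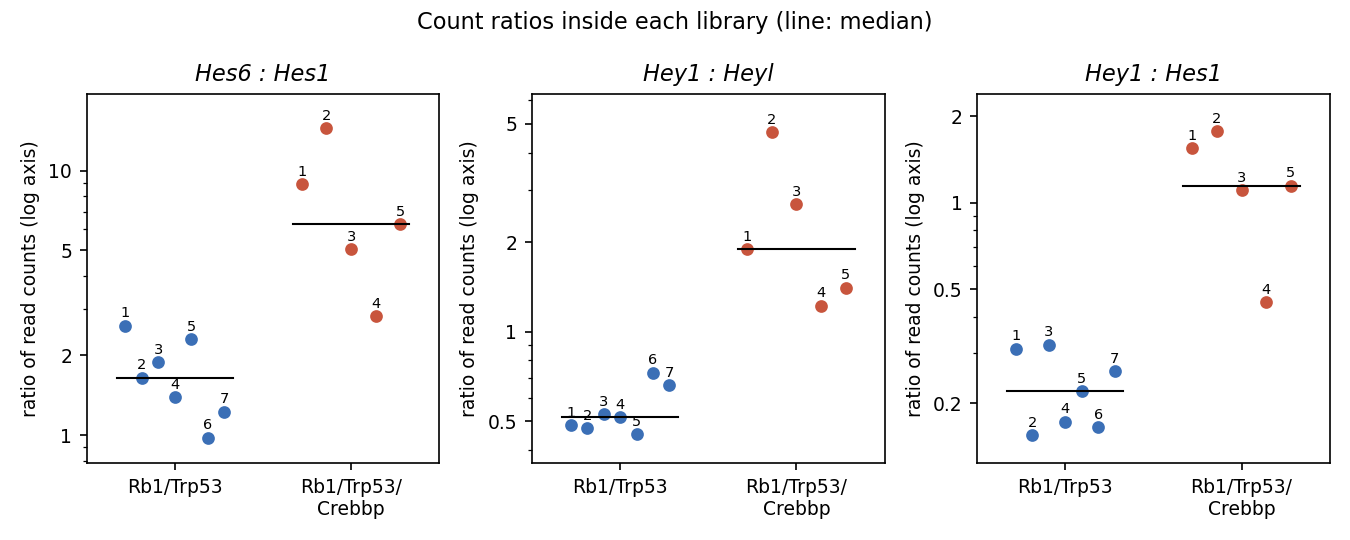
Ratios of read counts between members inside each library, on log axes, with tumours numbered by replicate and a line at the median of each genotype. Every Rb1/Trp53/Crebbp tumour lies above every Rb1/Trp53 tumour in all 3 panels, and replicate 4 comes closest for Hes6 to Hes1, at 2.82 against 2.59.

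The order of the members was compared as CPM per kb, that is CPM divided by the length of all annotated exons in GENCODE M21 (1363 bases for Hes5 to 5113 bases for Heyl). The annotation used for counting is unknown, which makes these levels approximate. In Rb1/Trp53 tumours the order by median was Hes6 (25.7), Hes1 (16.3), Nrarp (6.65), Heyl (2.24), Hey1 (1.79), Hey2 (0.685) and Hes5 (0.0983), each in CPM per kb. Hes6 was above Hes1 and Hes1 above Nrarp in 7 of 7 of these tumours, although the ranges of Hes6 and Hes1 just met (19.1 to 30.2 and 8.80 to 19.3), whereas Heyl and Hey1 overlapped, at 1.75 to 2.68 and 1.57 to 2.78. In Rb1/Trp53/Crebbp tumours the order was Hes6 (30.6), Nrarp (7.29), Hes1 (4.09), Hey1 (2.93), Heyl (0.998), Hey2 (0.379) and Hes5 (0.231). Nrarp was above Hes1 in 4 of 5 of these tumours, all but replicate 4, and Hey1 was above Heyl in 5 of 5, against 2 of 7 Rb1/Trp53 tumours. In the Rb1/Trp53/Crebbp group Nrarp and Hes1 (4.64 to 10.9 and 2.25 to 8.54), Hes1 and Hey1 (2.39 to 3.80), Heyl and Hey2, and Hey2 and Hes5 were neighbours with overlapping ranges, whereas Hey1 and Heyl (0.341 to 1.33) did not overlap.

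With the genotype mean subtracted, the members did not all rise and fall together over the 12 tumours. Pearson's r of log2 CPM was 0.52 between Hes6 and Hey2, 0.50 between Hes1 and Heyl and 0.44 between Hes6 and Nrarp. It was -0.22 between Hes1 and Hes6, -0.49 between Heyl and Nrarp and -0.77 between Hes1 and Nrarp. These r values pool both genotypes and are descriptions of tumours that share library depth and scaling. The genes most like Hes1 by this measure were Edn1, which encodes the vasoconstrictor endothelin-1 (r = 0.99), Gstt3, a glutathione transferase gene (0.98), and Cmtm8 (0.97). All 3 were called lower, with log2 fold changes of -1.84, -1.64 and -1.51. Among those most like Heyl were Airn, a non-coding RNA that overlaps Igf2r on the opposite strand (0.95), and Col13a1, a transmembrane collagen gene (0.93). The strand setting of the counting is not given, so where the genes overlap Airn reads cannot be told from Igf2r reads. Airn was called lower (log2 fold change -1.19, edgeR adjusted p = 0.0353), and Igf2r was not called (0.38 ± 0.23 SE, adjusted p = 0.247).

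The genes most like Nrarp were Ttf2 (r = 0.97) and the DNA replication and repair helicase genes Dna2 (0.95) and Pif1 (0.94), all 3 called higher, with log2 fold changes of 0.67, 0.79 and 1.43. The genes most like Hes6 were Gpsm2, which orients the mitotic spindle (0.93), Smn1 (0.93) and Hnrnpab (0.92), none of them called. Those most like Hey1 were Aig1, Zfp623 and Dnd1 (0.85, 0.84 and 0.83), and those most like Hey2 were Mmachc, Crcp and Srsf9 (0.88, 0.86 and 0.83), again with no call. The highest r of 12 tumours among so many genes is large by selection, so these names describe the pattern only.

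The other genes of the pathway were taken from lists chosen by role, again with earlier results of these data known. Over all tested genes edgeR called 9.64% as higher and 8.61% as lower. Among the 4 Notch receptors, Notch4, the receptor of endothelium, and Notch3, the receptor of vascular muscle cells, were lower, by log2 fold changes of -0.63 ± 0.18 (SE; edgeR adjusted p = 0.0304) and -0.81 ± 0.25 (SE; adjusted p = 0.0440), and Notch1 and Notch2 were not called. Both calls ended with each of the 4 marker scores (the mean z-score of log2 CPM over a marker list) as a term in the fit. With the endothelial, mural, follicular and adipocyte scores Notch4 had -0.34 ± 0.17, -0.42 ± 0.24, -0.77 ± 0.28 and -0.68 ± 0.25 (SE, edgeR adjusted p = 0.237, 0.266, 0.335 and 0.197). Notch3 had -0.53 ± 0.27, -0.21 ± 0.28, -0.70 ± 0.42 and -1.07 ± 0.31 (SE, adjusted p = 0.234, 0.635, 0.589 and 0.137). These fits called 530, 743, 4 and 54 genes in all. What part vessel cells had in these differences was not tested. The receptor list had 2 of 4 lower and none higher, with a median of -0.68. Of 8 ligands and ligand-like genes, 2 were lower and 2 higher: Dll1 (-1.05 ± 0.26 SE; adjusted p = 0.0206) and Jag1 (-0.77 ± 0.24 SE; adjusted p = 0.0426), which activate Notch, were lower, and Dlk2 (1.16 ± 0.27 SE; adjusted p = 0.0172) and Dlk1 (1.90 ± 0.61 SE; adjusted p = 0.0470), ligand-like proteins that do not activate it in the usual way, were higher. Dlk1 lies outside the rule for named genes and was named after its values were seen.

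Genes of receptor cleavage (2 of 10 called) and of the nuclear complex (1 of 9) were mostly not called. The same holds for all tested genes, of which 18.3% were called. Of 10 processing genes, Aph1c (-0.87 ± 0.22 SE; edgeR adjusted p = 0.0206) and Psen2 (-0.46 ± 0.13 SE; adjusted p = 0.0313), both parts of the gamma-secretase that releases the Notch intracellular domain, were lower. Aph1c has a close paralogue in Aph1b (0.07 ± 0.16 SE; not called), and the counting could have split reads between them. Of 9 genes of the activation complex, Snw1, a splicing factor and Notch coactivator, was higher (0.34 ± 0.09 SE; adjusted p = 0.0212), while Rbpj itself was not called (0.06 ± 0.18 SE; adjusted p = 0.843). None of 12 corepressor genes was called by edgeR, with 1 at an unadjusted p under 0.05, 0 called by DESeq2 and 4 by limma voom; Tle1, a Groucho corepressor of HES proteins, had the smallest p (-0.29 ± 0.13 SE; adjusted p = 0.121). Of 17 modulators Fbxw7, which marks the Notch intracellular domain for degradation, was lower (-0.42 ± 0.10 SE; adjusted p = 0.0198).

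**Figure D4:**
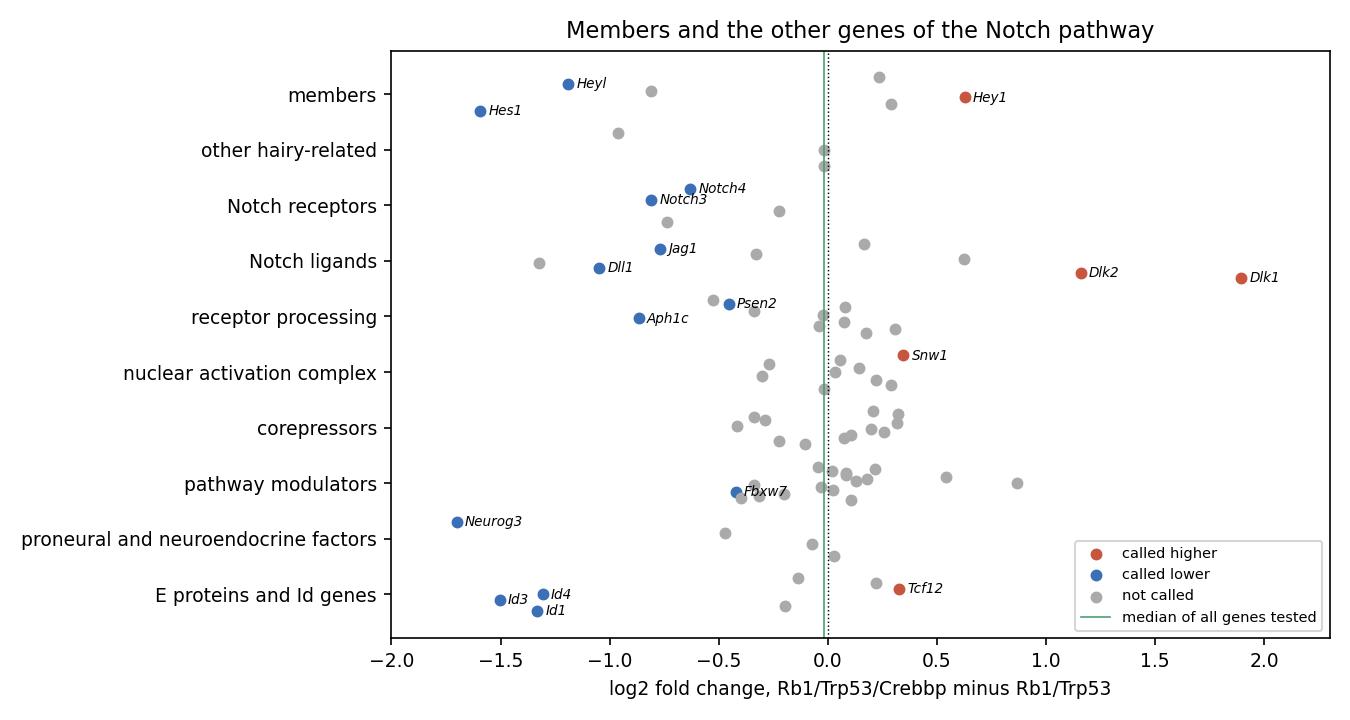
Log2 fold change of each tested gene by role in the pathway, as Rb1/Trp53/Crebbp minus Rb1/Trp53. Blue and red points passed edgeR's adjusted p of 0.05 as lower or higher and are named, grey points did not pass, and the green line marks the median of all tested genes, -0.02. Both called receptors and all 3 called Id genes lie to the left, and the called ligands lie on both sides.

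Related repressors (0 of 3 tested called) and the proneural genes (1 of 4) were mostly not called. The same holds for all tested genes, of which 18.3% were called. Of the related repressor genes, 3 of 6 were tested and none was called by edgeR, with 0 at an unadjusted p under 0.05, 0 called by DESeq2 and 1 by limma voom; Hes7, at 0.840 ± 0.299 CPM (SD, n = 7) and 0.435 ± 0.324 CPM (SD, n = 5), had the smallest p (edgeR adjusted p = 0.154; 0.0343 without Rb1/Trp53/Crebbp replicate 4). Of 11 proneural genes, which HES repressors hold down, 4 were tested and Neurog3 was lower, from 14.3 through 64.4 to 134.8 CPM in Rb1/Trp53 tumours and at 30.9, 7.70, 40.8, 27.0 and 8.11 CPM in Rb1/Trp53/Crebbp replicates 1 to 5 (log2 fold change -1.70 ± 0.55 SE; edgeR adjusted p = 0.0491). With the follicular score in the fit Neurog3 turned to 0.24 ± 0.72 (SE; adjusted p = 0.942).

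Of 7 genes for E proteins, the partners of proneural factors, and for Id proteins, which trap E proteins, 3 were lower and 1 higher. Over all tested genes 8.61% were called lower and 9.64% higher. Id3 averaged 30.8 ± 10.7 CPM in the 7 Rb1/Trp53 and 10.8 ± 4.41 CPM in the 5 Rb1/Trp53/Crebbp tumours (SD) without overlap (log2 fold change -1.50 ± 0.31 SE; edgeR adjusted p = 0.0106), Id1 was lower (-1.33 ± 0.38 SE; adjusted p = 0.0308, but -0.27 ± 0.34 SE and 0.684 with the adipocyte score and -0.66 ± 0.38 SE and 0.388 without the 4 Rb1/Trp53 tumours richest in adipocyte markers), and Tcf12, an E protein gene, rose (0.33 ± 0.09 SE; adjusted p = 0.0315). Id4, outside the rule for named genes, was lower as well (-1.31 ± 0.42 SE; adjusted p = 0.0459). The calls of Aph1c and Id3 held with each tumour left out. Those of Dlk2, Dll1 and Fbxw7 were lost without Rb1/Trp53/Crebbp replicate 2 alone (adjusted p = 0.0513, 0.0536 and 0.0512). Those of Notch3, Notch4, Jag1, Psen2, Snw1, Neurog3, Id1 and Tcf12 were lost without that tumour (0.0698 to 0.113) and in all in 3 to 10 of the 12 leave-out fits, most often for Neurog3 and least often for Snw1. Of the 13 called pathway genes named by the rule, 1 was still called with the mural score, Fbxw7 (adjusted p = 0.0327), and 0 with the endothelial, follicular or adipocyte score or without the adipocyte-rich tumours. Over all tested genes the mural, endothelial, follicular and adipocyte fits called 743, 530, 4 and 54 genes, against 2736 without a score. Without the adipocyte-rich tumours 40 genes were called. With so few calls over all genes, the loss of calls here says little about pathway genes. With the follicular score 7 of the 13 log2 fold changes shrank by over 1.5 times or turned (Dll1, Psen2, Fbxw7, Neurog3, Id3, Id1 and Tcf12). With the endothelial score 3 did so (Notch4, Notch3 and Jag1) and with the mural score 2 (Notch4 and Notch3). With the adipocyte score it was 3 (Id3, Id1 and Tcf12) and without the adipocyte-rich tumours 2 (Id1 and Tcf12).

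Markers of other cell types also differed between the genotypes, to unequal extents. Over all tested genes edgeR called 8.61% as lower and 9.64% as higher. All 9 adipocyte markers were lower, with Lep at 0 in at least 1 tumour, and their summed level ran from 59.8 to 1569 CPM in Rb1/Trp53 and from 41.2 to 100.2 CPM in Rb1/Trp53/Crebbp tumours. The 4 Rb1/Trp53 tumours with the highest Hes1, replicates 2, 4, 6 and 7, were also the 4 with the highest adipocyte sums, at 499 CPM or more. The same 4 had the highest C cell and neuroendocrine sums of their group (211308 CPM or more, against at most 176486 CPM). Their Schwann and glial sums were the highest too (60.1 CPM or more, against at most 51.5 CPM). So were their shares of reads not aligned uniquely (15.9% or more, against at most 14.1%). Which of these measures goes with Hes1 was not tested. Of 10 tested thyroid follicular markers 9 were below 0, with a median log2 fold change of -1.85, and edgeR called 2 as lower, DESeq2 called 7 and limma voom 9, with Duoxa2 and Slc26a4 at 0 in at least 1 tumour, and the list summed to 1641 to 9298 and 55.7 to 5755 CPM. Rb1/Trp53/Crebbp replicate 4 was the highest of its group for this sum and for Hes1, whereas Rb1/Trp53 replicate 1 had the highest sum of all tumours and the lowest Hes1 of its group. That Rb1/Trp53/Crebbp tumour was also the highest of its group for the C cell and neuroendocrine sum (143102 CPM) and the Schwann and glial sum (32.9 CPM). No score of those lists was fitted.

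Of 12 endothelial markers edgeR called 3 as lower, where 8.61% of all tested genes were, and none was at 0 in any tumour. DESeq2 called 5 of these markers and limma voom 5. Their sums were 129.5 to 253 CPM in Rb1/Trp53 and 78.7 to 222 CPM in Rb1/Trp53/Crebbp tumours. Of 11 markers of mural cells, the muscle cells and pericytes of vessel walls, edgeR called 4 as lower and none was at 0. DESeq2 called 6 of these markers and limma voom 7. Their sums were 146 to 365 and 104 to 540 CPM. Replicates 1 to 4 of the Rb1/Trp53/Crebbp group lay below every Rb1/Trp53 tumour for both sums, as they did for Heyl. Replicate 5 lay within the Rb1/Trp53 range for the endothelial sum and above it for the mural sum, the latter through Des alone (383 CPM). Without Des the mural sums were 134 to 258 CPM in Rb1/Trp53 tumours, 88.9 to 117.6 CPM in replicates 1 to 4 and 157 CPM in replicate 5, where Heyl stood at 6.81 CPM. Of 6 tested arterial endothelial markers, Gja4 and Sox17 were lower and Efnb2, the gene of the arterial ligand ephrin-B2, was higher without overlap (1.24 ± 0.13 SE; edgeR adjusted p = 0.000411). Of 12 C cell and neuroendocrine markers 10 were below 0, 2 were called higher and 1 lower, and the list summed to 101948 to 239359 and 26984 to 143102 CPM. Of other lists, 2 of 9 fibroblast, 0 of 8 macrophage (1 at an unadjusted p under 0.05, 1 called by DESeq2), 2 of 4 Schwann cell and the 1 tested of 7 lymphocyte markers were called lower by edgeR.

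With a marker score in the fit, the Hes1 difference on the log2 scale was -1.55 ± 0.41 (SE; edgeR adjusted p = 0.0575) for the endothelial, -1.94 ± 0.44 (SE; 0.0343) for the mural, -0.89 ± 0.34 (SE; 0.216) for the adipocyte and -0.50 ± 0.31 (SE; 0.602) for the follicular score. Heyl had -0.99 ± 0.29 (SE; edgeR adjusted p = 0.0726), -1.11 ± 0.36 (SE; 0.0773), -1.21 ± 0.35 (SE; 0.135) and -0.62 ± 0.38 (SE; 0.594) in the same order. Hey1 stayed between 0.53 and 0.78 with adjusted p from 0.140 to 0.403. The fits with the adipocyte and follicular scores called 54 and 4 genes in all, so the loss of a call in them says little about a single gene. Without the 4 Rb1/Trp53 tumours rich in adipocyte markers, an alternative added after the data were seen, Hes1 had -1.07 ± 0.38 (SE; edgeR adjusted p = 0.212), Heyl -1.21 ± 0.37 (SE; 0.174) and Hey1 0.78 ± 0.22 (SE; 0.152), and 40 genes were called in all. The Heyl and Hey1 differences kept about the same size without those tumours, and that of Hes1 was smaller. The tumours left out held the 4 highest Hes1 values, 33.1 to 39.4 CPM against 17.9 to 23.5 CPM in the Rb1/Trp53 tumours kept. A smaller Hes1 difference was therefore fixed by the choice of tumours, and no conclusion about adipocytes can be drawn from it. What part the other cell types had in these differences was not tested.

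**Figure D5:**
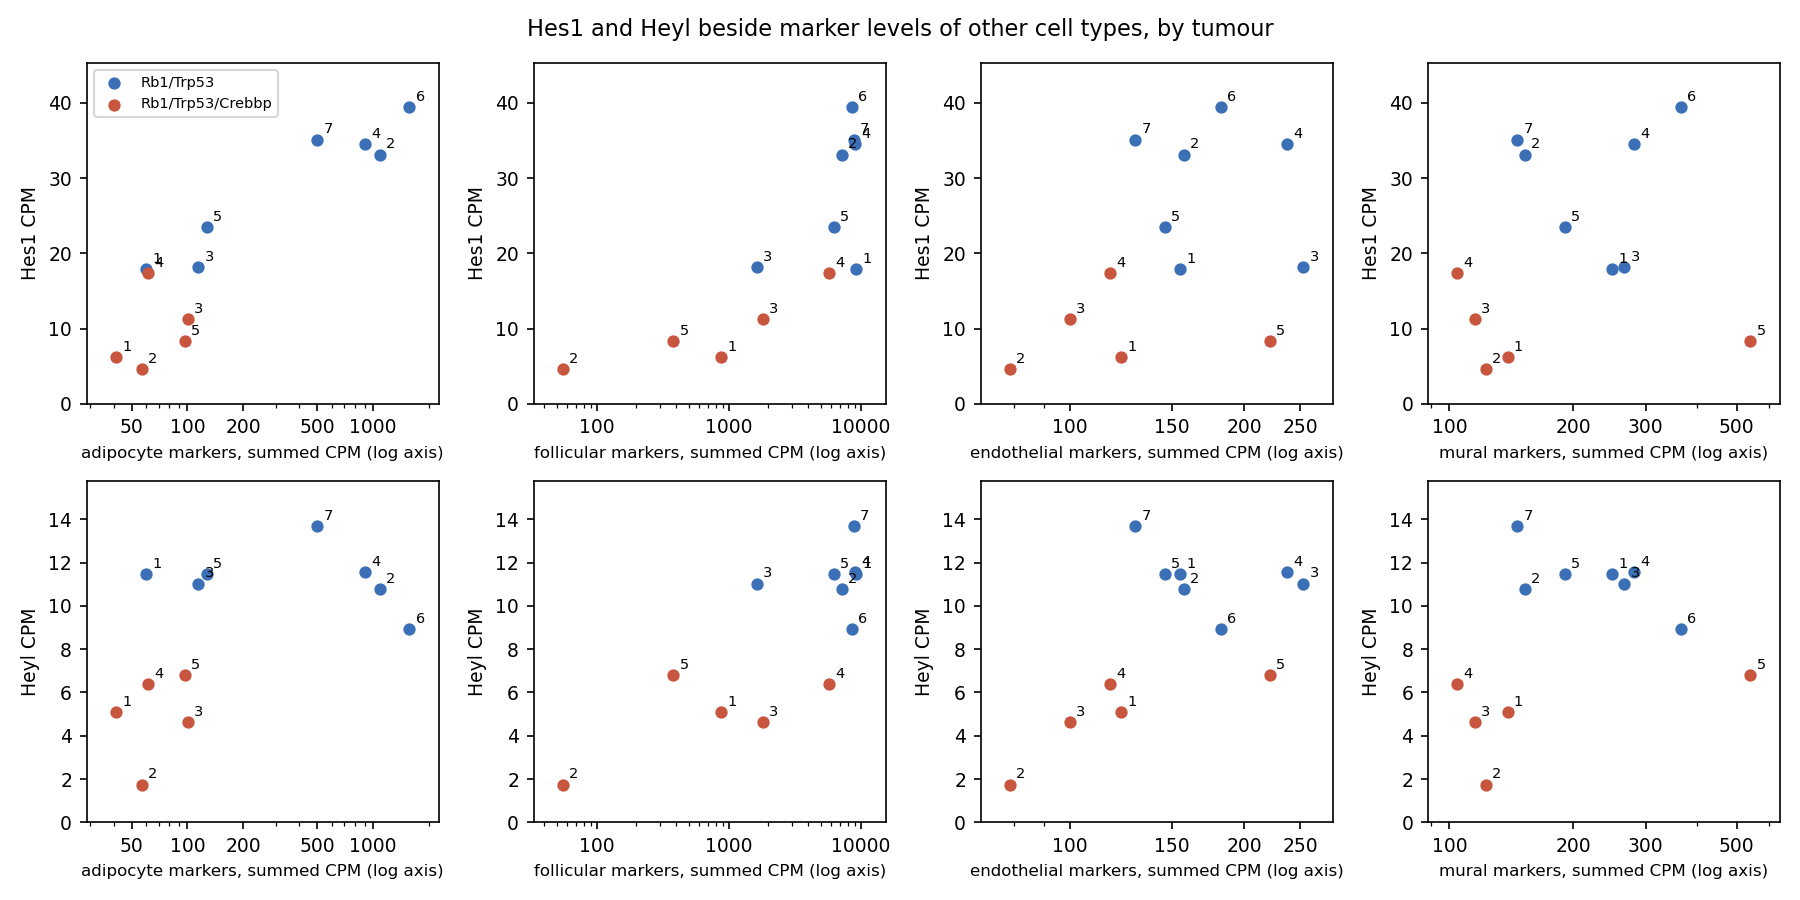
Hes1 (top) and Heyl (bottom) in CPM against the summed CPM of adipocyte, follicular, endothelial and mural markers (log axes), 1 point for each tumour, numbered by replicate. Hes1 is highest in the 4 Rb1/Trp53 tumours with the highest adipocyte sums. Those 4 also had the highest C cell and Schwann sums of their group, which are not drawn. In Rb1/Trp53/Crebbp replicates 1 to 4 Heyl and the endothelial and mural sums all lie below the Rb1/Trp53 tumours.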

How the data were processed

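Polyadenylated RNA of 12 tumours was sequenced, per the labels' protocols, from TRIzol extracts with NEBNext Ultra libraries. The submitters' processing notes name HTSeq 0.6.1, TopHat2 2.0.12, bcl2fastq 1.8.2 and the build mm9. For each tumour the authors deposited 1 table of unnormalized counts by gene symbol. Its annotation and strand setting are not given in the sources. The 5 summary rows of the counter were left out; reads outside genes made up 13.1% to 17.6% of each table. Genotypes were taken from the labels. Genes were kept by filterByExpr (minimum count 10), libraries were scaled by TMM, and edgeR 4.0.16 in R 4.3.3 fitted the quasi-likelihood F test (robust option), and p was adjusted by Benjamini-Hochberg over 14989 genes. CPM values use the TMM-scaled totals of the kept genes, log2 CPM a prior count of 2, and the SE is the log2 fold change divided by the square root of F. Every pair of libraries within a genotype differed by more than sampling noise. A marker score is the mean z-score of log2 CPM over a list. Alternatives used DESeq2 1.42.0 and limma 3.58.1. The procedure was tested on simulated data.

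The members and lists were chosen with earlier results of these data known. Named genes were the members, up to 3 called genes of each pathway list with the smallest p, or the 1 tested gene with the smallest p where none was called, and for each tested member the 3 genes with the highest within-genotype r at a mean of at least 1 CPM. Numbers shared by tumours of both groups do not pair them in the labels. Leaving out the adipocyte-rich tumours was an alternative chosen after seeing the data. Some genes that the rule or the lists hold are not reported here.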

Additional observations from a re-analysis of the deposited data

Results flagged for a closer look

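Hey1 in Rb1/Trp53 replicate 7 stood at 9.07 CPM, apart from the other 6 tumours of its group, whose highest value was 6.498 CPM and lowest 5.11 CPM. It was the only value that stood apart in this way among 44 sets of a gene and a genotype. Chance gives about 1 in 20 sets, so 1 such value is no more than chance gives. Without that tumour the log2 fold change of Hey1 was 0.74 ± 0.16 (SE; edgeR adjusted p = 0.0173).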

How the results depend on the processing

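Against 2736 genes and 3 members called, limma voom called 6352 genes and 4 members. Replicates 1 to 5 gave 868 genes without and 463 genes with the replicate block, the latter with 1 member, Hes1 (adjusted p = 0.0480), while Hey1 (0.0772) and Heyl (0.0629) were not called; same-numbered tumours correlated at -0.06 to 0.16 in their deviations from the group means and only number 1 correlated best with its own number, so the numbers were not taken as pairs. With the endothelial, mural, follicular and adipocyte scores 530, 743, 4 and 54 genes and 0, 1, 0 and 0 members were called by edgeR, with 4, 3, 1 and 3 members at an unadjusted p under 0.05. Without the 4 Rb1/Trp53 tumours rich in adipocyte markers it was 40 genes and 0 members (3 unadjusted). Leaving out 1 tumour gave 1074 to 3510 genes, more than 1.5 times fewer without Rb1/Trp53 replicate 2 (1653), 4 (1547) or 6 (1692) or Rb1/Trp53/Crebbp replicate 1 (1322), 2 (1074), 3 (1782) or 5 (1820), and 2 to 4 members. With the follicular score the log2 fold change of Nrarp turned to -0.39 and that of Neurog3 to 0.24; the cause was not tested. Of 150 alternative values of members, 122 kept their direction and their side of the threshold, 24 lost a call, 3 gained a call and 1 reversed. Among the members Hes5 alone did not pass the filter on low counts. Counts were also low for Hey2 (12 to 47 in Rb1/Trp53/Crebbp tumours) and for Heyl in Rb1/Trp53/Crebbp replicate 2 (19). The effect of depth was not tested.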
